A study of Homo sapiens with 12 samples.

Results

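The genes described here are the G1 cyclins and the inhibitors of their kinases: CCND1, CCND2, CCND3, CCNE1, CCNE2, CDKN1A, CDKN1B, CDKN1C, CDKN2C and CDKN2D. Members were chosen by name, as every probe set that the platform annotation gives to 1 of these 10 genes alone. Of the 10 genes, 9 had a probe set, and together they held 21 of the 54675 probe sets on the array. CDKN2C was not analysed here. Expression was measured in A549, a human lung cancer cell line, 3 days after transfection with 50 nM siRNA (small interfering RNA, which lowers the messenger RNA it matches). The first experiment set 3 arrays of SDS3 siRNA against 3 arrays of non-targeting siRNA, and the second set 3 arrays of FAM60A siRNA against 3 further arrays of non-targeting siRNA. Every group is A549 under the same transfection reagent, and no untransfected cells were analysed here. The labels' treatment protocol names a single siRNA for FAM60A and the non-targeting siRNA and does not name the one for SDS3, and effects of an siRNA on transcripts other than its target were not tested.

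In G1, cyclins D1, D2 and D3 activate the kinases CDK4 and CDK6, and cyclins E1 and E2 activate CDK2. These kinases phosphorylate RB and its relatives, which frees E2F factors to switch on the genes of DNA replication. The CIP/KIP inhibitors p21 (CDKN1A), p27 (CDKN1B) and p57 (CDKN1C) bind cyclin-CDK complexes, while the INK4 inhibitors, of which p19 (CDKN2D) is one, bind CDK4 and CDK6 alone. SDS3 (current symbol SUDS3) and FAM60A (current symbol SINHCAF) are subunits of the SIN3-HDAC co-repressor, a histone deacetylase complex that E2F and Sp1 family factors can bring to promoters. FAM60A has been described in a human osteosarcoma line as restraining CCND1.

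The start-site windows of CCNE1 and CDKN1A are shown because CCNE1 was the member higher in both knockdowns and CDKN1A differed between them. Each is 300 bases of RefSeq sequence (GRCh38.p14, plus strand), with 250 bases before the start and 50 after it, and capitals mark GC boxes, the GGGCGG motif of Sp1-type factors, read on both strands.
CCNE1, chr19:29811741-29812040: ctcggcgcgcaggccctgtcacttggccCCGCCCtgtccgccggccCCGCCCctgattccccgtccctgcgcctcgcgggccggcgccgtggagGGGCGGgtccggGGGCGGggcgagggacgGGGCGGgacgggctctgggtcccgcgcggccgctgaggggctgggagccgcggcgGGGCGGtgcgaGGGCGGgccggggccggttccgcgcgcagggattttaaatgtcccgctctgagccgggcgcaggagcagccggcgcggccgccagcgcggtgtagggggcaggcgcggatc
CDKN1A, chr6:36678464-36678763: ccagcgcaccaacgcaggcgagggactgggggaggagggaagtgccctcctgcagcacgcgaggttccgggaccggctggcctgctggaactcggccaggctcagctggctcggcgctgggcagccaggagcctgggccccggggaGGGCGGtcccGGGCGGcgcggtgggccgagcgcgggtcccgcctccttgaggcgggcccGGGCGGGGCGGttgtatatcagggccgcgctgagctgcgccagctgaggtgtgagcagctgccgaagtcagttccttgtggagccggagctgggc
The CCNE1 window held 7 GC boxes and the CDKN1A window 4, of which the last 2 overlap. A GC box was present in 45% of the 35114 windows of this kind in the RefSeq table. Neither window held the E2F-type motif TTTNNCGC (6.89% of all windows) or the E-box CACGTG (7.26%). CDKN2D was the only measured member with a window holding the E2F-type motif, with 1 match beside 3 GC boxes, and CDKN1B had 1 GC box. The table gave 3 windows for CCND3, with 5, 4 and 0 GC boxes. CCND1, CCND2, CCNE2 and CDKN1C had no entry. These matches describe the letters only.

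All values below are log2 of the deposited signal, and changes are knockdown minus control. Median signals differed between the experiments, at 96.82 to 98.32 on the SDS3 arrays and 186 to 192.6 on the FAM60A arrays, so levels were compared within an experiment only. The targets checked the labels: SUDS3 233841_s_at fell to 8.47 ± 0.151 after SDS3 knockdown, against 10.05 ± 0.0463 in its controls (SD, n = 3 each, 33.4% of control, limma adjusted p = 7.33e-06). SINHCAF 220147_s_at fell to 9.30 ± 0.163 after FAM60A knockdown, against 11.99 ± 0.0195 in its controls (SD, n = 3 each, 15.5% of control, limma adjusted p = 9.02e-08). The cells carried A549 markers at log2 11.72 or more on all 12 arrays (AKR1B10, AKR1C1, AKR1C3, ALDH3A1 and GPX2), and 5 of these 5 fell after SDS3 knockdown and 1 of 5 after FAM60A knockdown. Of the epithelial markers KRT8, KRT18, KRT19, EPCAM and CDH1, 5 of 5 fell after SDS3 knockdown (median -0.35), and after FAM60A knockdown 2 fell (EPCAM by 1.22 and CDH1 by 0.49) and KRT19 rose by 0.50. Of 11 tested leukocyte, endothelial and fibroblast markers, LUM fell in both knockdowns and CD14 after SDS3 knockdown, and none rose. The 18S ribosomal RNA probe sets read 0.53 higher on the SDS3 knockdown arrays and 0.28 higher on the FAM60A knockdown arrays (exact permutation p = 0.1 in each, the smallest possible). The ACTB 3' minus 5' probe set signal, a measure of RNA integrity, was -0.024 to 0.022 on the FAM60A knockdown arrays, against 0.070 to 0.112 on their controls (difference -0.094, exact permutation p = 0.1, the smallest possible), and in the SDS3 experiment the groups overlapped. The part of these markers and RNA measures in the results was not tested. Whether the 3 wells of a group were independent cultures is not stated, so the p-values reflect array-to-array spread that may be technical. In RNA from a whole culture, fewer cells with a transcript and less of it per cell cannot be told apart.

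All 21 member probe sets passed the filter on low values. SDS3 knockdown changed 6 of them at a limma adjusted p under 0.05 (2 higher, 4 lower), where 24.2% of all tested probe sets were called (11% higher, 13.2% lower). FAM60A knockdown changed 7 of them (4 higher, 3 lower), where 26.8% of all tested probe sets were called (14.7% higher, 12.1% lower). These shares lie close to the background of each experiment, and the members as a set did not stand out by their number of calls. The median change of the 21 was 0.027 after SDS3 knockdown and -0.052 after FAM60A knockdown, while over all tested probe sets it was 0.0082 after SDS3 knockdown and -0.020 after FAM60A knockdown. Groups did not overlap for 8 of the 21 in the SDS3 experiment and 11 in the FAM60A experiment, against 39.4% and 41% of all probe sets. Changes ran from -0.57 to 0.47 after SDS3 knockdown and from -0.45 to 0.43 after FAM60A knockdown, and both ends of each range were called. The difference between the knockdowns, taken as the SDS3 change minus the FAM60A change, passed for 4 of the 21 (2 higher, 2 lower), where 16.9% of all tested probe sets were called (6.28% higher, 10.6% lower). Each knockdown was made in its own experiment, and the experiments differed in median signal and in how far the target fell. A difference between the knockdowns therefore cannot be told apart from a difference between the experiments. The members follow by role: D cyclins, E cyclins, then inhibitors.

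**Figure D1:**
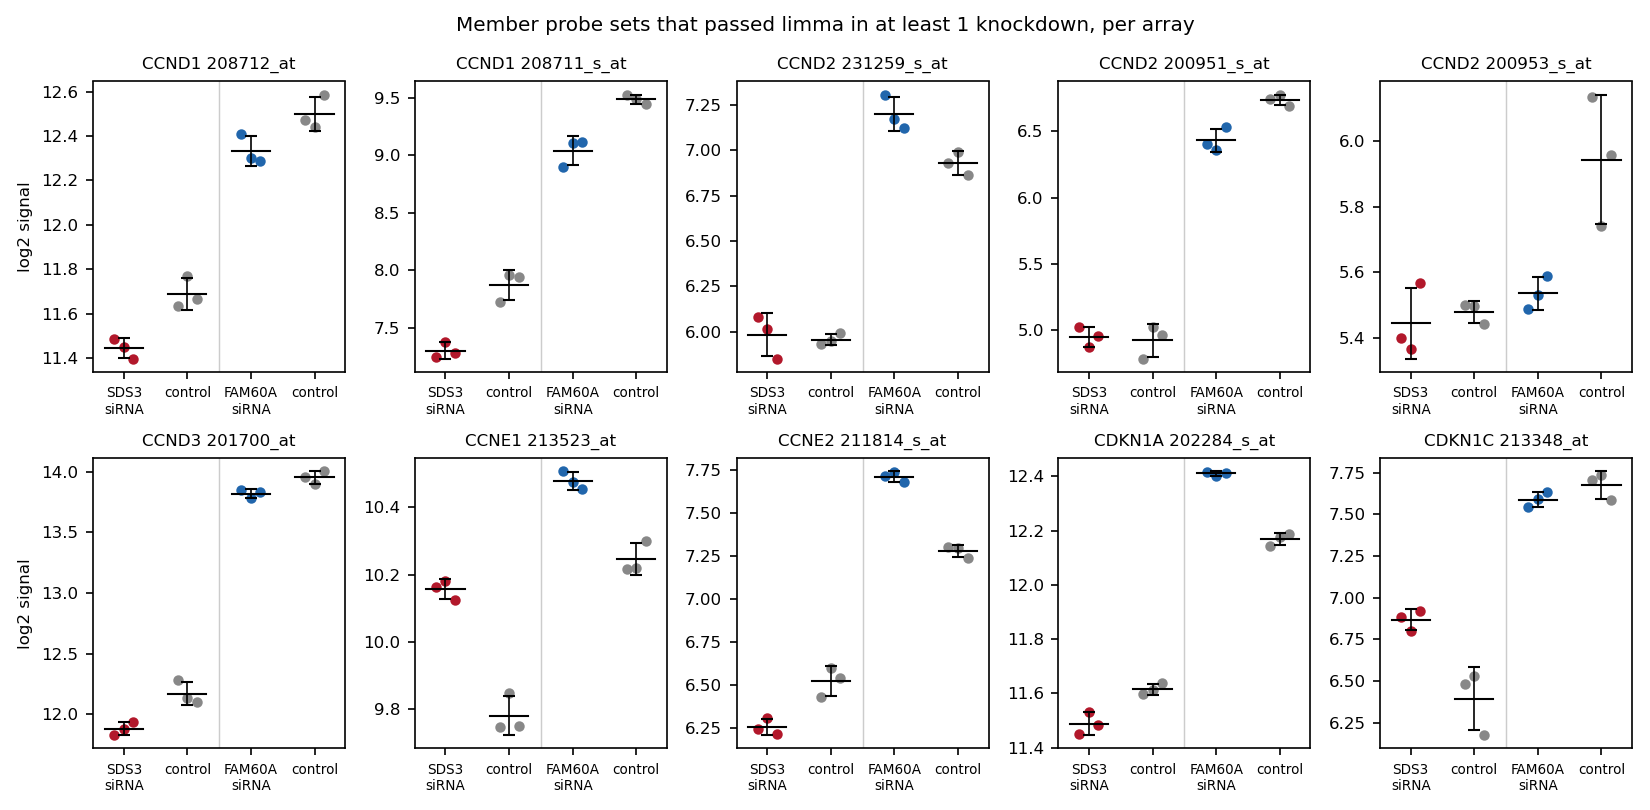
Log2 signal on each array (points, 3 per group) with the mean and SD (bars) for the 10 member probe sets called in at least 1 knockdown, each experiment's knockdown to the left of its control. CCND1 208711_s_at lies lower on every knockdown array of both experiments, while CCNE2 211814_s_at lies lower after SDS3 siRNA and higher after FAM60A siRNA.

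CCND1, the D-type cyclin most often amplified in tumours, was lower in both knockdowns. Its probe set 208711_s_at read 7.24, 7.38 and 7.28 on the SDS3 knockdown arrays, against 7.72, 7.96 and 7.94 on their controls. The 3 knockdown arrays lay below every control array and close together. This was a fall by 0.57 (SE 0.0787), to 67.3% of control (limma adjusted p = 0.00098). In the FAM60A experiment the same probe set read 8.90, 9.10 and 9.12 on the knockdown arrays, against 9.52, 9.49 and 9.44 on the controls. Again the groups did not overlap, with knockdown array 1 the lowest. It fell by 0.45 (SE 0.0725), to 73.4% of control (limma adjusted p = 0.00123). The SDS3 change minus the FAM60A change was -0.13 (95% interval -0.36 to 0.11, limma adjusted p = 0.486), so a difference in size was not detectable.

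The other CCND1 probe set, 208712_at, gave smaller changes of the same sign. It read 11.49, 11.45 and 11.40 on the SDS3 knockdown arrays, against 11.63, 11.77 and 11.67 on the controls, with no overlap. This was a fall by 0.24 (SE 0.0618) to 84.4% of control (limma adjusted p = 0.0205). The call rested on single arrays: it was lost without control array 2 (-0.20, adjusted p = 0.0835), knockdown array 2 (-0.25, 0.0549) or knockdown array 3 (-0.22, 0.0569). On the FAM60A knockdown arrays this probe set read 12.41, 12.30 and 12.29, against 12.47, 12.44 and 12.59 in the controls, a change of -0.17 that did not pass (limma adjusted p = 0.0923). All 3 knockdown arrays were below the controls there, the nearest by a few hundredths, and the change passed with the trend and robust options of eBayes (adjusted p = 0.026).

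The genes whose profile over the 12 arrays lay nearest to CCND1 208711_s_at, the member probe set with the largest called change in both knockdowns, were OXNAD1, MIR924HG and MTFMT. Likeness was the root mean square difference in log2 deviation from the own control mean. It was 0.0687 for OXNAD1, 0.0737 for MIR924HG and 0.0757 for MTFMT, and the median over all tested genes was 0.386. OXNAD1, for example, changed by -0.57 after SDS3 knockdown and by -0.43 after FAM60A knockdown.

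CCND3, the D-type cyclin used widely in blood cells, fell after SDS3 knockdown. Its brighter probe set 201700_at read 11.83, 11.88 and 11.94 on the SDS3 knockdown arrays, against 12.28, 12.13 and 12.10 on the controls. The groups were separate. The change was -0.29 (SE 0.0682), to 81.9% of control (limma adjusted p = 0.0152), and it lost its call without knockdown array 1 (-0.26, adjusted p = 0.0608) and with the mean of both probe sets (-0.049, adjusted p = 0.715). In the FAM60A experiment it read 13.85, 13.78 and 13.83 on the knockdown arrays, against 13.96, 13.90 and 14.001 on the controls, also without overlap. That change was -0.13 (limma adjusted p = 0.13, or 0.0175 with trend and robust), and the difference between the knockdowns was -0.15 (95% interval -0.34 to 0.032, adjusted p = 0.262), so an effect of SDS3 alone was not shown. The dimmer probe set 1562028_at gave 0.19 after SDS3 knockdown and -0.052 after FAM60A knockdown, neither called. Whether it lay above background was not tested.

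CCND2, the third D-type cyclin, lies on 4 probe sets, and these did not move together. After FAM60A knockdown 231259_s_at read 7.31, 7.17 and 7.13, against 6.93, 6.99 and 6.86 in the controls, which was higher on all 3 arrays. It rose by 0.27 (SE 0.0689, limma adjusted p = 0.0143), a call lost without control array 3 (0.24, adjusted p = 0.0584). In the same experiment 200951_s_at read 6.41, 6.36 and 6.53 on the knockdown arrays, against 6.74, 6.77 and 6.69 on the controls, lower on all 3 arrays (-0.30, limma adjusted p = 0.00611). Likewise 200953_s_at read 5.49, 5.53 and 5.59, against 6.14, 5.74 and 5.96 in the controls (-0.41, limma adjusted p = 0.00859). The last probe set, 200952_s_at, changed by -0.00024. With 1 probe set higher and 2 lower, no direction is given for the gene, and the mean of its 4 probe sets was -0.11 (adjusted p = 0.0997).

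After SDS3 knockdown limma called 0 of the 4 CCND2 probe sets, and 0 had an unadjusted p under 0.05. Changes ran from -0.035 to 0.049, and 200952_s_at stayed under log2 5 on all 6 arrays of that experiment. For 200951_s_at, which read 5.02, 4.87 and 4.95 after SDS3 knockdown against 4.79, 5.02 and 4.97 in the controls, the groups overlapped throughout. Its SDS3 change minus FAM60A change was 0.33 (95% interval 0.11 to 0.55, limma adjusted p = 0.0407). The call was lost (0.26 to 0.35) on leaving out any 1 array except FAM60A knockdown array 3, SDS3 control array 2 and SDS3 knockdown array 2. For 200953_s_at the difference was 0.37 (limma adjusted p = 0.0519).

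CCNE1, the cyclin that drives CDK2 at the G1/S transition, rose in both knockdowns on its brighter probe set. On 213523_at the SDS3 knockdown arrays read 10.16, 10.18 and 10.13, against 9.75, 9.85 and 9.75 on the controls. Each knockdown array stood above each control array. The rise was 0.38 (SE 0.058), to 130% of control (limma adjusted p = 0.00181). The FAM60A knockdown arrays read 10.51, 10.48 and 10.45, against 10.22, 10.22 and 10.30 on the controls, again fully separate. Here CCNE1 rose by 0.23 (SE 0.0579), to 118% of control (limma adjusted p = 0.0136), a call lost without control array 1 (0.22, adjusted p = 0.0555). The difference between the knockdowns was 0.14 (95% interval -0.022 to 0.31, limma adjusted p = 0.237).

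The dimmer CCNE1 probe set, 242105_at, showed no called change, but whether it lay above background was not tested. It read 6.04, 5.97 and 5.88 after SDS3 knockdown, against 5.95, 5.85 and 6.00 in the controls (0.030, limma adjusted p = 0.809). In the FAM60A experiment the knockdown arrays read 6.51, 6.34 and 6.49, against 6.57, 6.59 and 6.53 in the controls (-0.12, limma adjusted p = 0.221). The mean of both probe sets was 0.056 after FAM60A knockdown (adjusted p = 0.393), so the call there rests on 213523_at.

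CCNE2, the second E-type cyclin and itself an E2F target, moved in opposite directions. Its probe set 211814_s_at read 6.25, 6.31 and 6.22 on the SDS3 knockdown arrays, against 6.43, 6.60 and 6.54 on the controls. All 3 knockdown arrays were below the controls. It fell by 0.27 (SE 0.0648), to 83.1% of control (limma adjusted p = 0.0169). On the FAM60A knockdown arrays it read 7.72, 7.74 and 7.68, against 7.31, 7.30 and 7.24 on the controls, a gap several times the spread within either group. It rose by 0.43 (SE 0.0571), to 135% of control (limma adjusted p = 0.000341). The SDS3 change minus the FAM60A change was -0.70 (SE 0.0822, 95% interval -0.88 to -0.52, limma adjusted p = 5.95e-05). Opposite calls in the 2 knockdowns were made for 1.45% of all tested probe sets, and same-direction calls for 11.9%.

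The fall of CCNE2 211814_s_at after SDS3 knockdown depended on single arrays. Its call was lost without control array 2 (-0.23, adjusted p = 0.0697), control array 3 (-0.26, 0.0561) or knockdown array 1 (-0.26, 0.057). The brighter CCNE2 probe set 205034_at had the same signs without a call: it read 8.0, 8.03 and 8.15 after SDS3 knockdown against 8.11, 8.23 and 8.18 in the controls (-0.11, limma adjusted p = 0.261). With FAM60A siRNA the arrays read 9.05, 8.81 and 8.75 against 8.81, 8.54 and 8.80 in the controls, which overlapped (0.15, limma adjusted p = 0.314). Its difference between knockdowns was -0.26 (95% interval -0.53 to 0.0089, limma adjusted p = 0.183). With the mean of both probe sets, both changes passed, at -0.19 after SDS3 knockdown (adjusted p = 0.0204) and 0.29 after FAM60A knockdown (adjusted p = 0.00386).

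**Figure D2:**
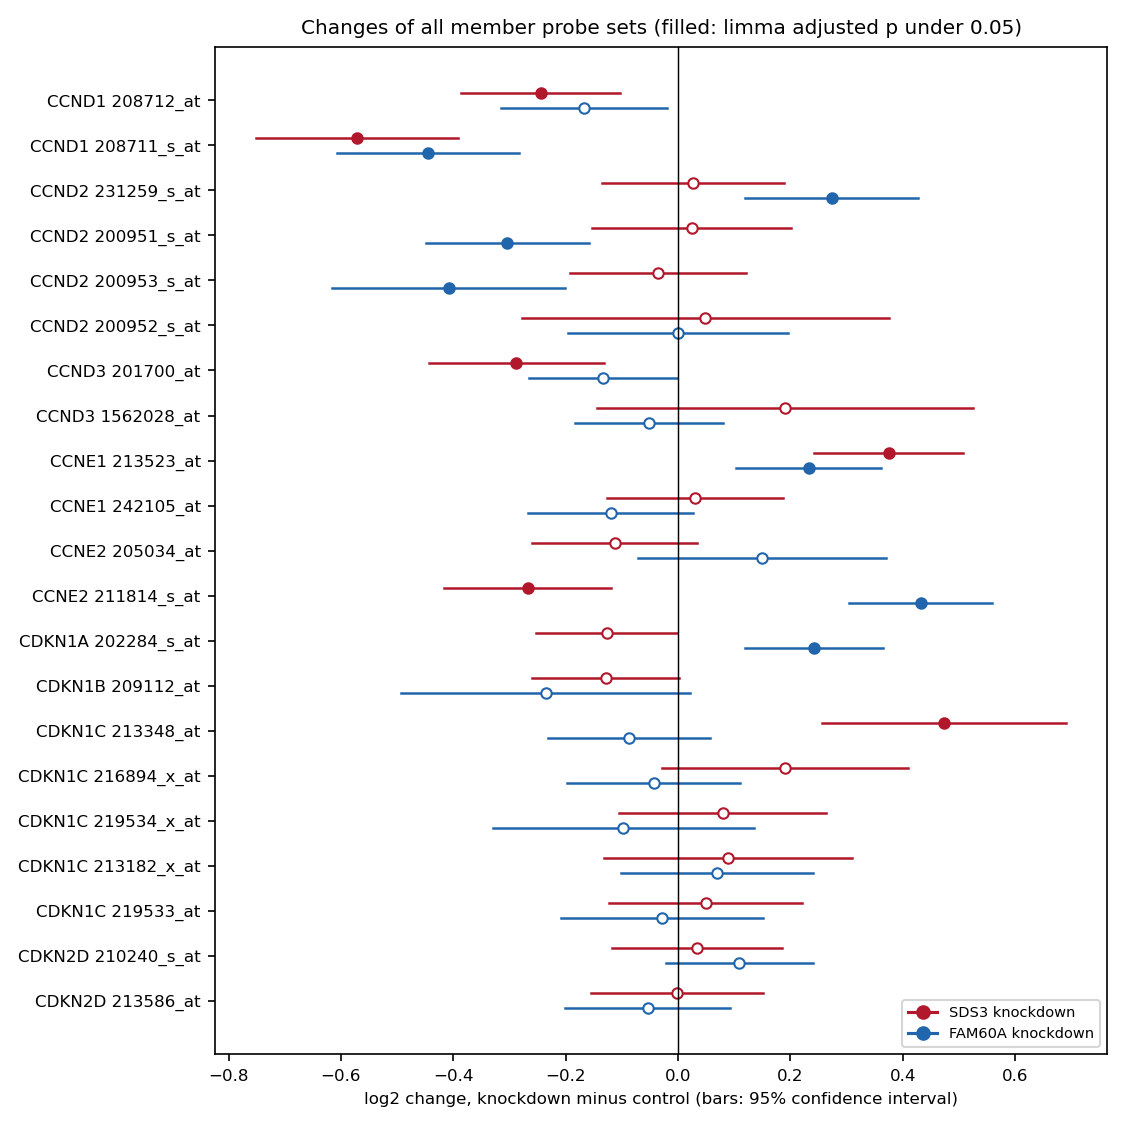
Log2 change with its 95% confidence interval for all 21 member probe sets, SDS3 knockdown (red) above FAM60A knockdown (blue), filled where the limma adjusted p is under 0.05. The filled points of CCND1 lie left of 0 in both colours, those of CCNE1 lie right of 0 in both, and those of CCNE2 lie on opposite sides.

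CDKN1A, the p53-inducible inhibitor p21, rose after FAM60A knockdown and was not called after SDS3 knockdown. Its single probe set 202284_s_at read 11.45, 11.53 and 11.48 on the SDS3 knockdown arrays, against 11.60, 11.61 and 11.64 on the controls. These arrays lay below the controls, but the change of -0.13 (95% interval -0.25 to -0.0012) did not pass (limma adjusted p = 0.14, or 0.0321 with trend and robust). On the FAM60A knockdown arrays it read 12.42, 12.40 and 12.41, against 12.14, 12.17 and 12.19 on the controls. The arrays within each group agreed to within a few hundredths and the groups were apart. The rise was 0.24 (SE 0.0551), to 118% of control (limma adjusted p = 0.0085). The SDS3 change minus the FAM60A change was -0.37 (SE 0.0707, 95% interval -0.52 to -0.22, limma adjusted p = 0.00253).

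CDKN1C, the imprinted inhibitor p57, rose after SDS3 knockdown on 1 of its 5 probe sets. That probe set, 213348_at, read 6.88, 6.80 and 6.92 on the SDS3 knockdown arrays, against 6.48, 6.53 and 6.18 on the controls. Control array 3 was the lowest, and no control reached a knockdown array. Every reading here lay below the CDKN2A probe set on the same arrays (7.11 to 7.36), from a locus deleted in A549. Whether 213348_at lay above background was not tested. The rise was 0.47 (SE 0.0953), to 139% of control (limma adjusted p = 0.00699). FAM60A knockdown arrays read 7.54, 7.59 and 7.63 against 7.71, 7.74 and 7.58 in the controls, with overlap (-0.088, limma adjusted p = 0.37). The difference between the knockdowns was 0.56 (SE 0.119, 95% interval 0.31 to 0.82, limma adjusted p = 0.00485). The other 4 probe sets were not called, at 0.049 to 0.19 after SDS3 knockdown and -0.097 to 0.069 after FAM60A knockdown. Averaged over the 5, the SDS3 change was 0.18 (adjusted p = 0.0643).

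CDKN1B, the inhibitor p27 that is controlled largely by protein degradation, was called in neither knockdown. Its probe set 209112_at read 10.42, 10.46 and 10.37 after SDS3 knockdown, against 10.52, 10.52 and 10.59 in the controls (-0.13, 95% interval -0.26 to 0.0021, limma adjusted p = 0.149). With FAM60A siRNA it read 11.42, 11.34 and 10.99, against 11.64, 11.33 and 11.50 in the controls (-0.24, 95% interval -0.49 to 0.022, limma adjusted p = 0.17). Knockdown array 3 alone was far below the rest in that group.

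CDKN2D, the INK4 inhibitor p19, was also called in neither knockdown. Its probe set 210240_s_at read 6.37, 6.48 and 6.43 after SDS3 knockdown, against 6.32, 6.37 and 6.49 in the controls (0.033, limma adjusted p = 0.776). The FAM60A knockdown arrays gave 7.92, 7.85 and 7.85, against 7.81, 7.72 and 7.76 in the controls, higher on every array without passing (0.11, 95% interval -0.022 to 0.24, limma adjusted p = 0.212). Probe set 213586_at changed by -0.0018 after SDS3 knockdown and by -0.054 after FAM60A knockdown, neither called.

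Among the other CDK inhibitors on the array, CDKN3, a phosphatase that acts on CDK2, rose in both knockdowns. It read 11.56, 11.60 and 11.53 after SDS3 knockdown against 11.06, 11.15 and 11.07 in the controls (0.47, limma adjusted p = 0.000505). After FAM60A knockdown it read 12.50, 12.45 and 12.39 against 12.10, 12.13 and 11.96 in the controls (0.38, limma adjusted p = 0.00199). The SDS3 call was lost with all spike-ins (0.27, adjusted p = 0.0727) and with poly-A scaling (0.15, 0.38), and the FAM60A call with poly-A scaling (0.28, 0.193). CDKN2A and CDKN2B, which encode p16 and p15 from a locus deleted in A549, were not called in either. Their probe sets still read 7.11 to 7.36 and 6.18 to 6.48 on the SDS3 arrays, and 8.07 to 8.28 and 7.50 to 7.60 on the FAM60A arrays. No detection call was used here. Whether the dimmer member probe sets, such as those of CCND2, CDKN1C and CDKN2D, lay above background was therefore not tested. The same holds for CCNE2 211814_s_at, at 6.22 to 6.60 on the SDS3 arrays and 7.24 to 7.74 on the FAM60A arrays. In each experiment it read below the CDKN2A probe set throughout. CCND1 208711_s_at, at 7.24 to 7.96 on the SDS3 arrays, overlapped the CDKN2A range there.

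The members were then set beside the pathway around them, with 1 probe set a gene, the brightest. On that footing 4 of 9 member genes changed after SDS3 knockdown (CCNE1 and CDKN1C higher, CCND1 and CCND3 lower), where 30% of all tested genes were called (13.5% higher, 16.6% lower). After FAM60A knockdown 3 of 9 changed (CCND2 by the probe set that rose, CCNE1 and CDKN1A, all higher), where 32.5% were called (17.4% higher, 15.2% lower). By probe set 4 were higher and 3 lower there. The falls, on CCND1 208711_s_at (-0.45) and CCND2 200951_s_at and 200953_s_at, are left out by taking the brightest. The difference between knockdowns passed for 2 of 9, CDKN1A lower and CDKN1C higher, where 21.3% were called (13.5% lower, 7.87% higher). Among 8 G1 kinases and activators, 2 rose and 3 fell after SDS3 knockdown (median -0.20), and 0 rose and 4 fell after FAM60A knockdown (median -0.19, 1 higher and 4 lower at an unadjusted limma p under 0.05). The median over all tested genes was 0.0064 after SDS3 knockdown and -0.023 after FAM60A knockdown.

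CDC25A, the phosphatase that activates CDK2, fell by 0.36 after SDS3 knockdown (limma adjusted p = 0.0278) and by 0.57 after FAM60A knockdown (limma adjusted p = 0.000175). CCNH, the cyclin of the CDK-activating kinase, fell by 0.29 after SDS3 knockdown (limma adjusted p = 0.00537) and by 0.29 after FAM60A knockdown (limma adjusted p = 0.00389). CDC37, which loads CDK4 on HSP90, rose by 0.46 after SDS3 knockdown, a call lost with all spike-ins (0.26, adjusted p = 0.0785) and with poly-A scaling (0.14, 0.397), and CDK7 fell by 0.21. MNAT1, the assembly factor of the CDK-activating kinase, fell by 0.54 after FAM60A knockdown. CDK2, the partner of the E cyclins, rose by 0.19 after SDS3 knockdown (limma adjusted p = 0.0292, but -0.0092 and -0.13 under spike-in scaling) and fell by 0.37 after FAM60A knockdown (limma adjusted p = 0.00185). Its difference between the knockdowns was 0.57 (limma adjusted p = 0.000275). The SDS3 calls of CDK2 (0.18 to 0.20) and CDK7 (-0.20 to -0.23) were lost without any 1 array except knockdown array 3, and that of CDC25A (-0.29 to -0.38) without control array 1 or 3 or knockdown array 1 or 2. Means over all probe sets of a gene also lost the SDS3 calls of CDC25A (-0.30, adjusted p = 0.0606) and CDK2 (0.11, 0.151).

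Parts of the ubiquitin ligases that destroy these proteins changed in 5 of 12 genes after SDS3 knockdown (1 higher, 4 lower) and 9 of 12 after FAM60A knockdown (3 higher, 6 lower). The shares called over all tested genes were 30% after SDS3 knockdown and 32.5% after FAM60A knockdown. SKP2, which marks p27 and p21 for degradation, read 10.49, 10.44 and 10.53 after SDS3 knockdown, against 11.24, 11.22 and 11.26 in the controls. It fell to 59.3% of control (limma adjusted p = 3.81e-05). After FAM60A knockdown it read 10.83, 10.68 and 10.79, against 11.91, 11.85 and 11.96 in the controls. It fell to 45.3% of control (limma adjusted p = 2.07e-06), and its other 2 probe sets fell in both knockdowns as well. CKS1B, the SKP2 cofactor, fell by 0.37 after FAM60A knockdown. DTL, which directs p21 and CDT1 to the CUL4 ligase, fell by 0.91 after SDS3 knockdown and by 0.36 after FAM60A knockdown. FBXW7, the receptor for cyclin E, fell by 0.33 after FAM60A knockdown, where 1 of its other 2 probe sets, not called, gave -0.15. FBXO4, linked to cyclin D1 turnover, fell by 0.29 after SDS3 knockdown, a call lost with the mean of its probe sets (-0.092, adjusted p = 0.235). DDB1, a CUL4 adaptor, rose by 0.18 after SDS3 knockdown (but -0.022 and -0.14 under spike-in scaling). It also rose by 0.29 after FAM60A knockdown (limma adjusted p = 0.00443). That call was lost with all spike-ins (0.26, adjusted p = 0.131) and with poly-A scaling (0.19, 0.408). Leaving out any 1 array of the SDS3 experiment ended the SDS3 calls of DDB1 (0.16 to 0.20) and FBXW7 (-0.17 to -0.19), and leaving out any 1 FAM60A array except control array 3 ended the FAM60A call of FBXO4 (-0.18 to -0.22).

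In the RB-E2F-DREAM axis 7 of 17 genes changed after SDS3 knockdown (1 higher, 6 lower, median -0.096) and 7 after FAM60A knockdown (2 higher, 5 lower, median -0.16). Of all tested genes 30% were called after SDS3 knockdown and 32.5% after FAM60A knockdown. E2F7, a repressor E2F that E2F1 induces, read 9.44, 9.51 and 9.60 after SDS3 knockdown, against 10.07, 10.07 and 10.02 in the controls (-0.54, limma adjusted p = 0.000377). After FAM60A knockdown it read 10.07, 9.99 and 9.92, against 10.82, 10.67 and 10.73 in the controls (-0.74, limma adjusted p = 2.85e-05), although its dimmer probe set 241725_at was called in neither. LIN52, a DREAM subunit, fell by 0.73 after SDS3 knockdown, although its other probe set 231959_at was not called (-0.11, limma adjusted p = 0.294). In the same experiment E2F8 fell by 0.50 and TFDP1, a dimer partner of E2Fs, by 0.37 (1 of its other 2 probe sets, not called, gave -0.27). TFDP1 also fell by 0.30 after FAM60A knockdown (limma adjusted p = 0.00595), where its probe set 204147_s_at, not called, gave -0.20. LIN9, also of DREAM, fell by 0.46 after FAM60A knockdown, where another probe set, not called, gave -0.26. For LIN37 (0.53 after FAM60A knockdown) another probe set gave -0.14, and for TFDP2 (-0.38) another gave 0.35, so neither has a settled direction.

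E2F targets of S phase were lower where they changed: 9 of 18 fell and 0 rose after SDS3 knockdown (median -0.21), and 9 fell and 0 rose after FAM60A knockdown (median -0.19), with 4 lower in both. At an unadjusted p under 0.05 in limma, 11 were lower and 0 higher after SDS3 knockdown, and 12 lower and 0 higher after FAM60A knockdown. Over all tested genes 16.6% were called lower after SDS3 knockdown and 15.2% after FAM60A knockdown. CCNA2, the S-phase cyclin, read 9.06, 9.12 and 9.21 after SDS3 knockdown, against 9.98, 10.10 and 10.05 in the controls (-0.91, limma adjusted p = 2.98e-05). After FAM60A knockdown it read 10.54, 10.70 and 10.66, against 11.34, 11.19 and 11.25 in the controls (-0.62, limma adjusted p = 0.000108). CHEK1, the checkpoint kinase, fell by 0.92 after SDS3 knockdown and by 0.66 after FAM60A knockdown, where 1 of its other 3 probe sets, 229423_at, gave 0.014 and was not called. CDC6, the origin licensing factor, fell by 0.79 after SDS3 knockdown and by 0.45 after FAM60A knockdown. ORC1 fell by 0.40 after SDS3 knockdown, and the helicase subunits MCM2 (-0.62) and MCM3 (-0.46) fell after FAM60A knockdown. Their part in the changes of CCNE1 and CCND1, which went with lower S-phase transcripts in both knockdowns, was not tested.

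CDKN1A is also a p53 target, and the other genes of that list were mixed. Of 22 tested, 6 rose and 5 fell after SDS3 knockdown (median -0.023), and 3 rose and 9 fell after FAM60A knockdown (median -0.043). Calls in either direction covered 30% of all tested genes after SDS3 knockdown and 32.5% after FAM60A knockdown. TP53INP1 rose by 0.91 after SDS3 knockdown and by 0.71 after FAM60A knockdown on its brightest probe set, while 235602_at (0.045 after SDS3 knockdown, -0.19 after FAM60A knockdown) and 244721_at (0.28 and 0.024) were not called. The mean of its 3 probe sets was 0.41 after SDS3 knockdown and 0.18 after FAM60A knockdown. After SDS3 knockdown GADD45A (0.70) and RRM2B (0.42) rose, but RRM2B lost its call with all spike-ins (0.22, adjusted p = 0.141) and with poly-A scaling (0.099, 0.552). GDF15 fell by 1.41 after SDS3 knockdown, and its other 2 probe sets, also called, fell by 0.33 and 0.43. After FAM60A knockdown MDM2, the p53 ligase, fell by 0.95 (limma adjusted p = 5.85e-06), SESN2 by 0.70 and TRIAP1 by 0.63, on the arrays where CDKN1A rose. Of the other 8 MDM2 probe sets, 5 fell there as well (-0.24 to -0.76) and 3 were not called (-0.018 to -0.16).

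**Figure D3:**
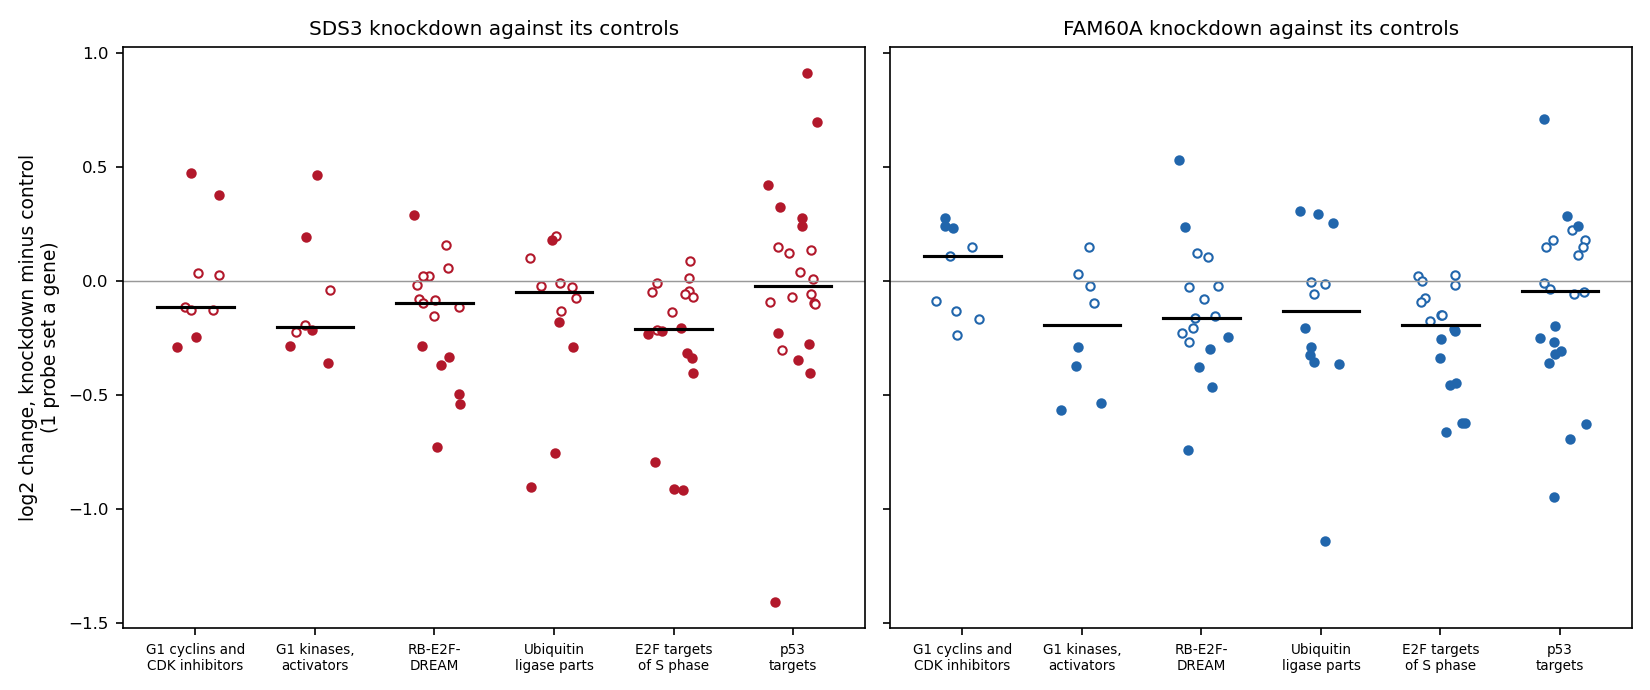
Log2 change of each gene (points, filled where the limma adjusted p is under 0.05, 1 probe set a gene) and the median (bars) for the members and 5 pathway lists, SDS3 knockdown left and FAM60A knockdown right. All filled points of the E2F target list, which leaves out the members, lie below 0 in both panels. The members spread to both sides after SDS3 knockdown, and their filled points lie above 0 after FAM60A knockdown. Other probe sets of CCND1 and CCND2, not drawn, were called lower after FAM60A knockdown.

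The direction of small changes depends on the scale that the arrays share. Poly-A spike-ins, bacterial RNAs added during labelling, read 0.32 higher on the SDS3 knockdown arrays than on their controls (exact two-sided permutation p = 0.1, the smallest possible). On the FAM60A knockdown arrays they read 0.10 higher (exact permutation p = 0.5). Scaling to them moved the median change of all tested probe sets to -0.31 after SDS3 knockdown and -0.12 after FAM60A knockdown. Scaling to all 45 spike-in probe sets gave -0.20 after SDS3 knockdown and -0.050 after FAM60A knockdown. After SDS3 knockdown, calls split into 950 higher and 20869 lower with poly-A scaling and 1741 higher and 14299 lower with all spike-ins, against 5334 higher and 6363 lower as deposited. After FAM60A knockdown the split was 2602 higher and 3964 lower with poly-A scaling, and 4360 higher and 3846 lower with all spike-ins, against 7127 higher and 5840 lower as deposited.

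On the spike-in scales the rises among the members lost their calls, except CCNE2 211814_s_at after FAM60A knockdown with all spike-ins, and the falls after SDS3 knockdown grew. After SDS3 knockdown CCNE1 was at 0.17 with all spike-ins (adjusted p = 0.247) and at 0.052 with poly-A scaling (adjusted p = 0.754), and CDKN1C at 0.27 (0.0668) and 0.15 (0.364). After FAM60A knockdown CCNE1 was at 0.20 (0.294) and 0.13 (0.571), and CDKN1A at 0.21 (0.262) and 0.14 (0.542). CCND2 231259_s_at was there at 0.24 (0.173) and 0.17 (0.456), and CCNE2 211814_s_at with poly-A scaling at 0.33 (0.107). CDKN1A after SDS3 knockdown passed as lower on both scales, at -0.33 (adjusted p = 0.0225) and -0.45 (0.0109), as did CDKN1B at -0.33 (0.0216) and -0.45 (0.0105). Differences between the knockdowns kept their calls on both scales for CCNE2 211814_s_at and CDKN1A and lost them for CDKN1C 213348_at, at 0.39 (adjusted p = 0.109) and 0.34 (0.337), and for CCND2 200951_s_at, at 0.15 (0.617) and 0.11 (0.793). The CCND1 falls on 208711_s_at held on every scale tried, and the rises of CCNE1, CDKN1C and CDKN1A are measured relative to the other transcripts. After FAM60A knockdown all spike-ins moved the values little, from 0.23 to 0.20 for CCNE1 and from 0.24 to 0.21 for CDKN1A. These spike-ins read 0.030 higher on the knockdown arrays (exact permutation p = 0.8), at 10.79 to 11.03 against 10.83 to 10.91 on the controls. Calls lost there with all spike-ins do not show that the rises depend on the scale.

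**Figure D4:**
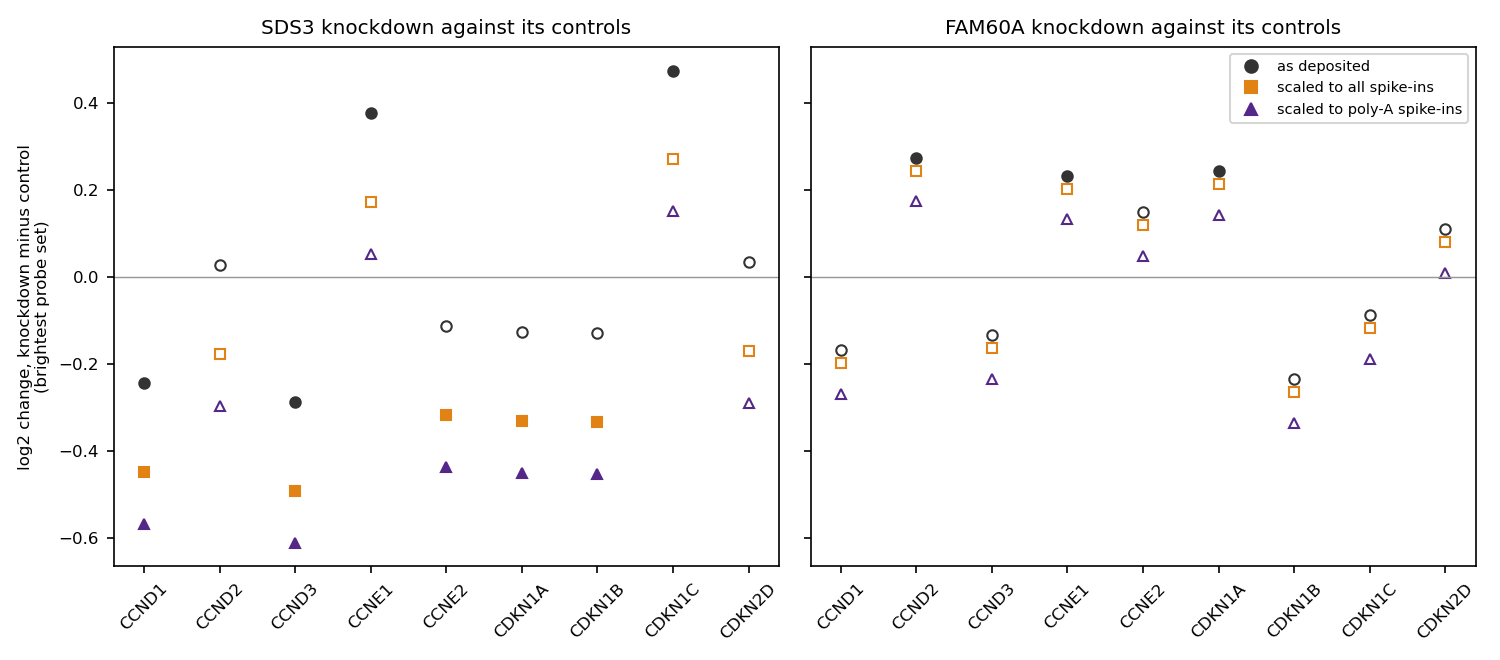
Log2 change of the brightest probe set of each of the 9 member genes as deposited (circles), scaled to all spike-ins (squares) and scaled to poly-A spike-ins (triangles), filled where the limma adjusted p is under 0.05, SDS3 knockdown left and FAM60A knockdown right. After SDS3 knockdown the scaled values lie lower by the same amount for every gene, and after FAM60A knockdown no scaled value is filled.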

How the data were processed

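The 12 arrays are 1-colour Affymetrix arrays hybridised with biotin-labelled cRNA from 1 ug of total RNA, per the labels' protocols. The values the authors deposited are linear intensity per probe set, made with RMA per the submitters' processing notes, with no version or settings given in the sources used here. RMA equalises the distributions of its arrays, which takes out any shift that most transcripts share and narrows changes of dim probe sets. Log2 values had been planned for, so log2 of the deposited intensity was taken. All per-sample columns were used, and 0 pairs of arrays were identical. Array number, 3 a group, limits the precision.

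Names came from the platform annotation (41097 with 1 gene, 1801 with several, 11777 with none listed), updated by Entrez identifier in RefSeq's gene list for GRCh38.p14 (41043 matched). The tests covered 48347 probe sets, those reaching log2 5 on 3 or more of the 12 arrays. Limma 3.58.1, under R 4.3.3, compared each knockdown with the 3 controls of its experiment (lmFit and eBayes, with Benjamini-Hochberg adjustment over all tested probe sets, threshold 0.05), and all adjusted p-values are limma's. The difference between knockdowns is a contrast in a fit of all 12 arrays. For gene lists, and for gene counts, a gene is its brightest probe set (18621 tested). The scripts were tested on simulated data. Tables were read with version 1.17.8 of data.table and figures drawn with matplotlib 3.10.9.

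Named genes are all members with every probe set, both targets, up to 4 genes with the largest called change per knockdown in each of 6 pathway lists (80 of 84 genes tested, the others not analysed here), and the 3 genes nearest to the member with the largest call. CDK2 after SDS3 knockdown, CDC6, DDB1 and TFDP1 after FAM60A knockdown and LUM, CD14, EPCAM, CDH1 and KRT19 were named after their values were seen. Members, lists and alternatives were chosen with earlier results of these data known. Alternatives were other filters, gene summaries, normalizations, spike-in scalings, fits, a replicate block, single arrays left out and a threshold of 0.01. Promoter windows come from a table of RefSeq windows (GRCh38.p14), in which 6 of the 10 members had an entry.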

Additional observations from a re-analysis of the deposited data

Results flagged for a closer look

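In 4 member probe sets the change after SDS3 knockdown differed from the change after FAM60A knockdown by a contrast in 1 limma fit of all 12 arrays, against 16.9% of all tested probe sets. Such a difference cannot be told apart from a difference between the experiments. For CCNE2 211814_s_at the SDS3 change minus the FAM60A change was -0.70, with a fall after SDS3 knockdown and a rise after FAM60A knockdown. That fall lost its call on leaving out single arrays. The brighter CCNE2 probe set 205034_at was called in neither knockdown, and its difference was -0.26 (limma adjusted p = 0.183). For CDKN1A 202284_s_at the difference was -0.37. For CDKN1C 213348_at it was 0.56, a difference that 4 other probe sets of the gene did not show at the threshold. For CCND2 200951_s_at it was 0.33, from a probe set that lay near log2 5 on the SDS3 arrays and passed the filter only through the FAM60A arrays. No group held 4 or more arrays, so single arrays could not be tested as outliers.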

How the results depend on the processing

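With 3 arrays a group, single arrays could end a call, in bright probe sets such as CCND3 201700_at as well as in dim ones. Of 186 recomputed counts, 169 stayed within 1.5 times the value reported and 17 moved. After SDS3 knockdown 6 member probe sets, 4 member genes and 38 list genes were called, and a threshold of 0.01 left 3, 2 and 24. After FAM60A knockdown 7 member probe sets, 3 member genes and 42 list genes were called. Scaling to all spike-ins left 4 probe sets and 0 genes (2 at an unadjusted limma p under 0.05), poly-A scaling (added after seeing the data) left 3 probe sets, 0 genes (1 unadjusted) and 27 list genes, trend and robust eBayes gave 5 member genes, and a threshold of 0.01 left 1. For the difference between knockdowns, 4 member probe sets, 2 genes and 24 list genes became 2, 1 and 11 with all spike-ins and 2, 1 and 6 with poly-A scaling, and a threshold of 0.01 left 13 list genes. Leaving out 1 array gave 4 to 6 member probe sets, 3 to 4 genes and 28 to 35 list genes after SDS3 knockdown. It gave 6 to 7, 2 to 3 and 36 to 41 after FAM60A knockdown, and 3 to 4, 2 and 19 to 27 for the difference. Signs turned for CCND2 after FAM60A knockdown with the mean of all probe sets (-0.11), and without shared-sequence probe sets for LIN37 (-0.14) and TFDP2 (0.35) after FAM60A knockdown and TFDP2 (0.42) after SDS3 knockdown. CDK2 and DDB1 after SDS3 knockdown turned to -0.0092 and -0.022 with all spike-ins, and to -0.13 and -0.14 with poly-A scaling. Apart from what the construction of an alternative shows, the cause was not tested. Same-numbered arrays did not deviate together (correlations of -0.075 to 0.019 in the SDS3 experiment and -0.138 to -0.068 in the FAM60A experiment). These correlations gave no sign of pairing, but they cannot show that same-numbered arrays were prepared apart. With the replicate number as a block, 6 member probe sets and 31 list genes were called after SDS3 knockdown, 7 and 38 after FAM60A knockdown, and 3 and 17 for the difference, where CCND2 200951_s_at lost its call.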
